A study of Mus musculus with 8 samples.

Results

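The 10 genes described here carry much of the traffic of iron and haem in a macrophage: *Hmox1* and *Blvrb* (haem breakdown), *Fth1* and *Ftl1* (storage), *Tfrc*, *Slc11a1* and *Slc11a2* (uptake and transport), *Ireb2* (regulation), and *Cp* and *Lcn2* (secreted proteins). They were taken by symbol from the 55401 rows of the gene table, with no use of their values, and all 10 were among the 15202 genes that had at least 0.5 CPM in at least 1 library and were tested. CPM is a gene's count scaled to the total of its library, so it compares a gene between libraries but not genes of different length. Poly(A) RNA was sequenced from cultured hepatic macrophages, isolated from mouse livers with an antibody against F4/80, a macrophage surface protein, and magnetic columns. Macrophages came either from WT mice on a standard diet (normal livers) or from MC4R-KO mice that had eaten a Western diet for between 6 and 10 weeks (steatotic livers), both on the C57BL/6J background. MC4R-KO mice lack the melanocortin 4 receptor throughout the body and are genetically obese, so genotype and diet differ together and cannot be told apart. Within each kind of liver, macrophages were cultured for 24 h on collagen-coated plates with cholesterol crystals (CC) at 500 µg/ml or with vehicle (Veh) alone, a treatment used to load lysosomes with cholesterol. Each of the 4 groups had 2 libraries, and nothing in the labels says whether the libraries of a group came from separate mice, so the p-values measure the spread between these libraries, which may be technical.

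Macrophages of the liver take up ageing red cells and recover their iron. Haem oxygenase opens the haem ring and frees the iron, which is then stored inside ferritin shells or leaves the cell through ferroportin (*Slc40a1*). When iron is scarce in the cell, the iron regulatory proteins bind short RNA hairpins called iron-responsive elements. A hairpin in the 5′ untranslated region (UTR) blocks translation, as in the ferritins, and hairpins in the 3′ UTR protect the mRNA from decay, as in *Tfrc*.

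Total counts ranged from 58668655 to 74529462 per library. Mitochondrial genes held 1.85% and 1.75% of counts in normal liver with Veh and 1.75% and 1.67% with CC. In steatotic liver they held 1.44% and 1.46% with Veh and 1.13% and 1.07% with CC. This share fell in the same group order as *Tfrc* below, and its part in the results was not tested. Among low values a count of 4 occurred 8779 times over all genes and libraries, against 3520 times for 3 and 4912 times for 5, so a sequenced fragment may stand for about 4 counts, and counts and totals may exceed the fragments by that factor. *Mc4r* had 0 counts in the 4 libraries labelled normal and 22 to 72 counts (0.299 to 0.966 CPM) in the 4 labelled steatotic. If the labels hold and the knocked-out gene made no RNA, the steatotic libraries would have none. Whether the disrupted locus is still transcribed was not tested, and every direction between the livers below rests on the labels. Of 8 macrophage markers all were tested, and they summed to 13351 to 16709 CPM with the normal label and 10486 to 12079 CPM with the steatotic label, a sum carried by *Lyz2* and *Cd68*. At either treatment 4 of the 8 were called higher, among them *Adgre1*, which encodes F4/80, and 3 lower with the steatotic label, a median log2 fold change of 0.15 with Veh and 0.11 with CC. Resident Kupffer cell markers (7 of 7 tested, 4 called higher and 2 lower with the steatotic label at either treatment) summed to 2417 to 3142 CPM with the normal label and 2958 to 4525 CPM with the steatotic label. Liver endothelial markers (5 of 6 tested) summed to 138 to 169.8 CPM with the normal label and 214 to 242 CPM with the steatotic label. With the steatotic label 4 were called higher and 1 lower with Veh, and 3 higher and 0 lower with CC. Stellate and fibroblast markers (1 of 6 tested, *Dcn*) summed to 3.003 to 7.42 CPM and 17.9 to 136 CPM. This sum was carried by *Dcn*, and the other markers of the list stayed under 0.5 CPM in every library. CC raised 1 and lowered 6 of the 8 macrophage markers with the normal label, and raised 2 and lowered 5 with the steatotic label. Of the 7 Kupffer cell markers it raised 0 and lowered 3, and raised 1 and lowered 5, in the same order. Of 5 endothelial markers it raised 1 and lowered 0, and raised 3 and lowered 1, and *Dcn* rose in both. These are calls by the test below, where the shares of all genes are given. The part of these cell types in the results below was not tested. In whole cultures, fewer cells of a type and less RNA per cell cannot be told apart.

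Iron-responsive elements were searched in annotated coding transcripts (GENCODE M21, GRCm38), because they mark the mRNAs that the iron regulatory proteins read. The search asked, on the sense strand, for a loop of CAGTG and any sixth base, a C bulge before the upper stem, all 5 base pairs of the upper stem and at least 4 pairs of the lower stem, G-U pairs allowed. Hairpins of this kind stood in a UTR of 17 of 22527 coding genes (0.0755%), and in 3 of the 10 genes. *Fth1* and *Ftl1* each had 1 in the 5′ UTR and *Tfrc* had 4 in the 3′ UTR. The element of *Slc40a1*, the exporter described further on, is added. The 27 bases of each are shown 5′ to 3′ as DNA letters, with the loop in capitals.
Fth1, 5′ UTR, chr19:9982733-9982759, plus strand: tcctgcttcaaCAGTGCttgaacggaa
Ftl1, 5′ UTR, chr7:45459780-45459806, minus strand: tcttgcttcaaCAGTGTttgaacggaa
Tfrc, 3′ UTR, chr16:32631220-32631246, plus strand: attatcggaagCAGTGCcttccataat
Tfrc, 3′ UTR, chr16:32631599-32631625, plus strand: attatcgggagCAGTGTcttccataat
Tfrc, 3′ UTR, chr16:32631664-32631690, plus strand: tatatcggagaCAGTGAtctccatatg
Tfrc, 3′ UTR, chr16:32631711-32631737, plus strand: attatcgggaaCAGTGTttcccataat
Slc40a1, 5′ UTR, chr1:45925466-45925492, minus strand: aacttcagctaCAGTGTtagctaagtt
All the loops share CAGTG and the stems differ between genes, while those of both ferritins are nearly alike. In the other 7 genes the search found no such hairpin, which says only that these letters and pairs are not in their annotated transcripts. An element that departs from these letters or pairs would be missed. The counts below measure mRNA, not the translation that the ferritin elements act on.

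With Veh, 5 of the 10 genes were lower and 2 were higher with the steatotic label. *Hmox1*, *Blvrb*, *Ftl1*, *Tfrc* and *Slc11a2* were lower and *Cp* and *Lcn2* were higher, by edgeR's quasi-likelihood test with p-values adjusted over all 15202 genes by the Benjamini-Hochberg method (below, edgeR adjusted p) under 0.05. That is 2 of 10 higher and 5 of 10 lower, where 16.4% of all tested genes were called higher and 14.3% lower. With CC, 1 of 10 was higher (*Lcn2*) and 4 were lower (*Hmox1*, *Blvrb*, *Tfrc* and *Slc11a2*) with the steatotic label, against 15.9% and 12.9% of all genes. The median log2 fold change of the 10 genes was -0.40 with Veh and -0.29 with CC, and that of all tested genes was -0.01 and 0.00. These comparisons share no library, but the comparisons of CC with Veh below use the same libraries again.

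CC raised *Hmox1*, *Slc11a1* and *Slc11a2* in macrophages of either label. With the normal label these were the 3 of 10 genes called higher and none was called lower, against 6.27% and 5.54% of all tested genes. With the steatotic label *Ftl1* was higher as well and *Tfrc* was lower, which makes 4 of 10 higher and 1 of 10 lower, against 12% and 10.9% of all genes. Without replicate 1 of steatotic liver with CC, 3 of the 10 were called, *Ftl1* and *Slc11a1* being lost. The median log2 fold change of the 10 genes was 0.21 with the normal label and 0.12 with the steatotic label, and that of all tested genes was 0.00 in both. The difference between these CC responses was not called for any of the 10 genes, in either direction, where 1.95% of all genes were called higher and 1.27% lower. At an unadjusted p-value under 0.05 the difference was negative for *Hmox1* and *Tfrc*, and DESeq2 called none. Without replicate 1 of normal liver with Veh, *Fth1* was called (0.46, edgeR adjusted p = 0.0282).

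**Figure D1:**
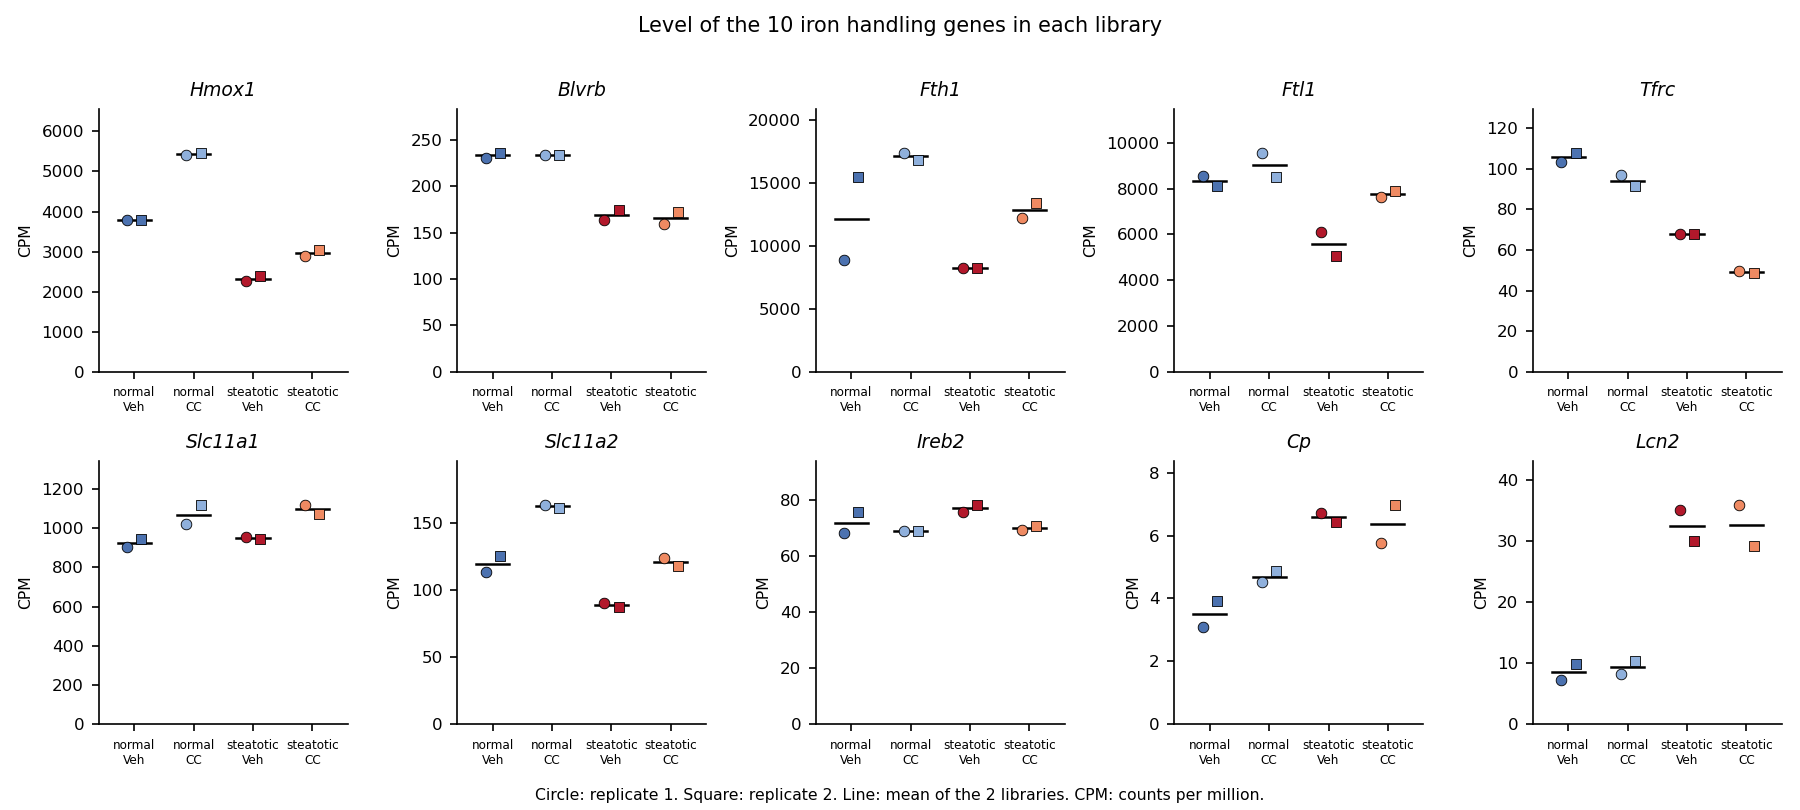
CPM (y axis, from 0, a separate scale for each gene) of the 10 iron handling genes in the 2 libraries of each group (x axis), with the group mean as a line. Both libraries of a group lie close together for *Hmox1*, *Tfrc* and *Slc11a2*, while the *Fth1* libraries of normal liver with Veh stand at 8865 and 15504 CPM.

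**Figure D2:**
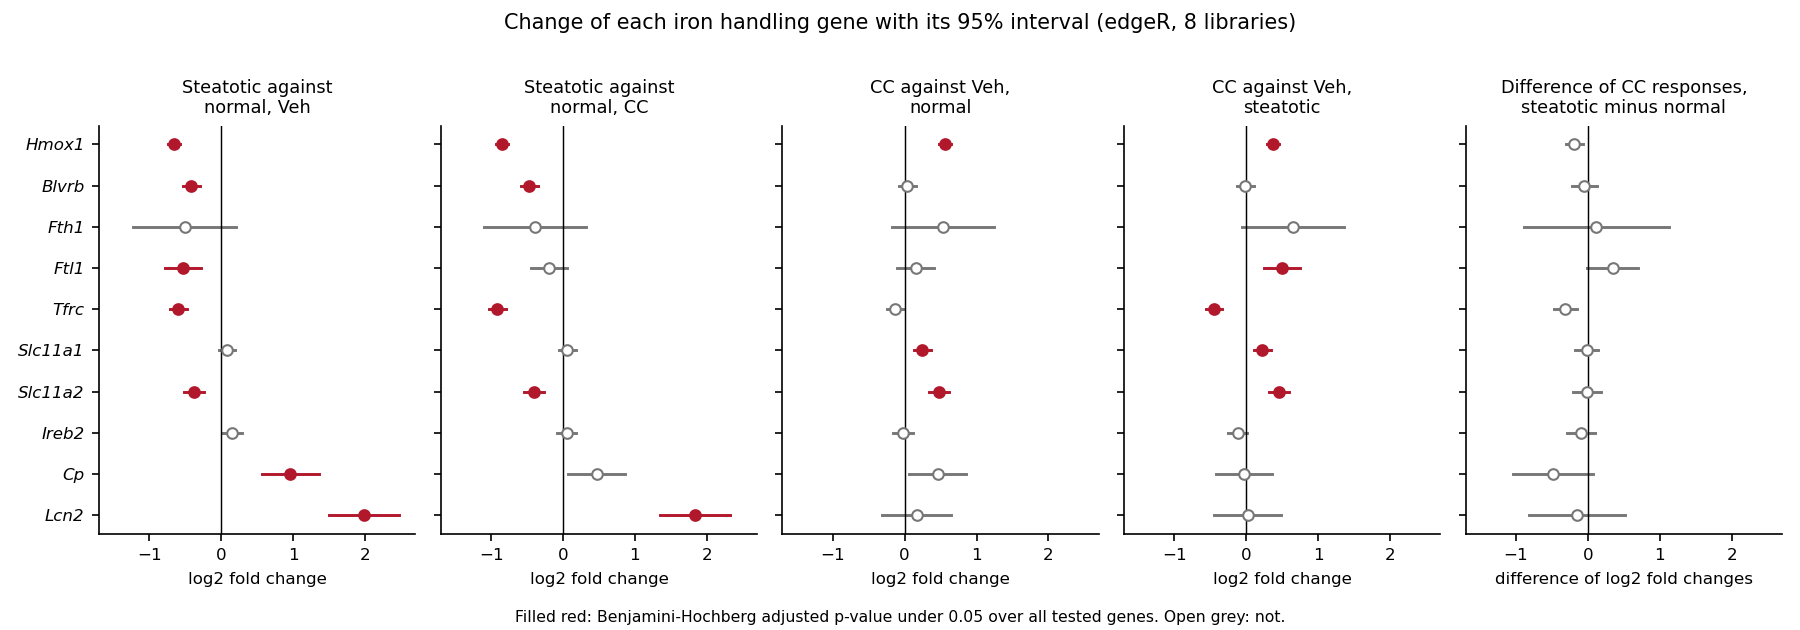
Log2 fold change (x axis) of each of the 10 genes (rows) in the 4 comparisons and in the difference between the CC responses, with the 95% interval as a bar. Filled red points have an edgeR adjusted p-value under 0.05 over all tested genes, and the widest bars are those of *Fth1*, from -1.22 to 0.20 for the steatotic label with Veh.

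Both haem breakdown genes described here were lower with the steatotic label, and of these only *Hmox1* changed with CC. The list of other iron genes, given below, holds 3 more genes of haem breakdown, *Hmox2*, *Blvra* and *Pgrmc1*. Between the labels 0 of these 3 were called at either treatment. For CC, 0 of 3 were called with the normal label and 1 of 3 was called lower with the steatotic label. *Hmox2* stood at 205 and 190 CPM in steatotic liver with Veh and at 151 and 162 CPM with CC. *Hmox1* (chr8:75093621-75100589, plus strand), the stress-inducible haem oxygenase, stood at 3792 and 3785 CPM in normal liver with Veh, 5401 and 5469 CPM in normal liver with CC, 2270.1 and 2381 CPM in steatotic liver with Veh, and 2884 and 3050.4 CPM in steatotic liver with CC. No groups overlapped, and steatotic liver with CC stayed below normal liver with Veh. The steatotic label went with a log2 fold change of -0.66 ± 0.04 (SE, edgeR adjusted p = 1.22e-05) with Veh and of -0.85 ± 0.04 (edgeR adjusted p = 3.8e-06) with CC. CC raised it 1.47-fold with the normal label (log2 0.56 ± 0.04, edgeR adjusted p = 0.000115) and 1.29-fold with the steatotic label (log2 0.37 ± 0.04, edgeR adjusted p = 0.000299). The difference between these responses was -0.19, with a 95% interval from -0.31 to -0.07 and an edgeR adjusted p of 0.119.

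*Blvrb* (chr7:27447978-27466144, plus strand) encodes biliverdin reductase B, an enzyme of the step after haem oxygenase. It stood at 231 and 236 CPM in normal liver with Veh and at 234 CPM in both libraries with CC, against 163 and 175 CPM in steatotic liver with Veh and 159 and 172 CPM with CC. All 4 libraries labelled steatotic lay below all 4 labelled normal, and the Veh and CC libraries of a label overlapped. The log2 fold change with the steatotic label was -0.42 ± 0.05 (SE, edgeR adjusted p = 0.000657) with Veh and -0.47 ± 0.05 (edgeR adjusted p = 0.000449) with CC. The response to CC lay between -0.08 and 0.16 (95% interval) with the normal label and between -0.13 and 0.11 with the steatotic label, on the log2 scale.

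The ferritins were the most abundant of the 10 transcripts, and *Fth1* had the widest gap between replicates, in normal liver with Veh. *Fth1* (chr19:9980598-9985098, plus strand), the heavy chain that oxidizes iron for storage, stood at 8865 and 15504 CPM in normal liver with Veh, 17439 and 16889 CPM in normal liver with CC, 8287 and 8265 CPM in steatotic liver with Veh, and 12268 and 13403 CPM in steatotic liver with CC. The CC libraries lay above the Veh libraries of the steatotic label, but replicate 1 of normal liver with Veh stood near the steatotic Veh libraries and replicate 2 near the CC libraries. The gap of 6639 CPM between these libraries was the widest of any gene, the next being 864 CPM for *Grn*, and the gap was in the opposite direction for *Grn*. The 0.81 log2 units between them compare with a 95th percentile of 0.48 over genes with a mean log2 CPM over 2.

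No comparison of *Fth1* was called when all 8 libraries were used, and 1 library of normal liver with Veh decided several calls. The log2 fold change with the steatotic label was -0.51 ± 0.27 (SE, edgeR adjusted p = 0.235) with Veh and -0.39 ± 0.27 (edgeR adjusted p = 0.362) with CC. The log2 response to CC was 0.53 ± 0.27 (edgeR adjusted p = 0.319) with the normal label and 0.65 ± 0.27 (edgeR adjusted p = 0.182) with the steatotic label. Without replicate 1 of normal liver with Veh, the steatotic label went with -0.86 with Veh (edgeR adjusted p = 0.000122), and without replicate 2 with -0.0562 (edgeR adjusted p = 0.521). The response to CC with the normal label was 1.00 without replicate 2 (edgeR adjusted p = 0.000463) and 0.19 without replicate 1 (edgeR adjusted p = 0.104). The difference between the CC responses was 0.46 without replicate 1 (edgeR adjusted p = 0.0282) and -0.35 without replicate 2 (edgeR adjusted p = 0.0741), so its sign turned on this group. Without either of them the response to CC with the steatotic label kept its size of 0.65 (edgeR adjusted p = 0.00017) and the steatotic label with CC went with -0.40 (edgeR adjusted p = 0.00105 without replicate 1 and 0.00106 without replicate 2). Neither of these last comparisons contains a library of normal liver with Veh, and in fits on their own 4 libraries they gave 0.65 (edgeR adjusted p = 0.000568) and -0.40 (edgeR adjusted p = 0.00312).

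*Ftl1* (chr7:45457944-45459884, minus strand), the light chain that helps the iron core to form, stood at 8576 and 8108 CPM in normal liver with Veh, 9575 and 8496 CPM in normal liver with CC, 6089 and 5056 CPM in steatotic liver with Veh, and 7635 and 7895 CPM in steatotic liver with CC. Steatotic liver with Veh was the lowest group, and the groups labelled normal overlapped. The steatotic label went with -0.54 ± 0.10 with Veh (SE, edgeR adjusted p = 0.0115) and with -0.19 ± 0.10 with CC (edgeR adjusted p = 0.227), on the log2 scale. CC went with a log2 fold change of 0.50 ± 0.10 with the steatotic label (edgeR adjusted p = 0.0196) and of 0.15 ± 0.10 with the normal label (edgeR adjusted p = 0.427). Of the former, the call was lost without replicate 1 (0.52, edgeR adjusted p = 0.0869) or replicate 2 (0.47, edgeR adjusted p = 0.102) of steatotic liver with CC. The call with Veh was lost without replicate 1 of normal liver with Veh (-0.50, edgeR adjusted p = 0.0614). Keeping every gene with any count ended both, with an edgeR adjusted p of 0.0547 for the steatotic label with Veh and of 0.0886 for CC with the steatotic label. In a fit on its own 4 libraries the latter was 0.50 (edgeR adjusted p = 0.0504).

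Several rows of the table share sequence with *Ftl1*, so its reads may have been divided among them, which was not tested. *Gm22133*, annotated as a miRNA, lies inside *Ftl1* on the same strand, and its row held counts equal to 32.9% of those of *Ftl1*, with 1773 to 3325 CPM per library. *Ftl1-ps1*, which shares 75.9% of its stretches of 50 bases with *Ftl1*, held 9.25%, *Ftl2-ps* held 1.44% and *Gm15590* held 0.93%. In all 4 of these rows the libraries labelled steatotic lay below those labelled normal. With Veh the log2 fold change was -0.70 for *Gm22133* (edgeR adjusted p = 9.57e-05) and -0.70 for *Ftl1-ps1* (edgeR adjusted p = 0.000154), and with CC it was -0.61 (edgeR adjusted p = 0.000236) and -0.54 (edgeR adjusted p = 0.00067). When the rows of *Ftl1*, its copies and *Gm22133* were summed, the steatotic label with CC also passed the test, at -0.31 (edgeR adjusted p = 0.022), while with Veh the value was -0.59 (edgeR adjusted p = 0.00156). The call with CC rested on the *Gm22133* row, since *Ftl1* summed with its copies alone gave -0.23 (edgeR adjusted p = 0.136). The response of that sum to CC was 0.44 with the steatotic label (edgeR adjusted p = 0.0073) and 0.16 with the normal label (edgeR adjusted p = 0.242). By contrast, among genes sharing stretches of 50 bases with *Fth1*, *Gm6977* had 0 counts. The ratio of *Fth1* to *Ftl1* counts ran from 1.36 to 1.99 in 7 libraries and was 1.03 in replicate 1 of normal liver with Veh.

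**Figure D3:**
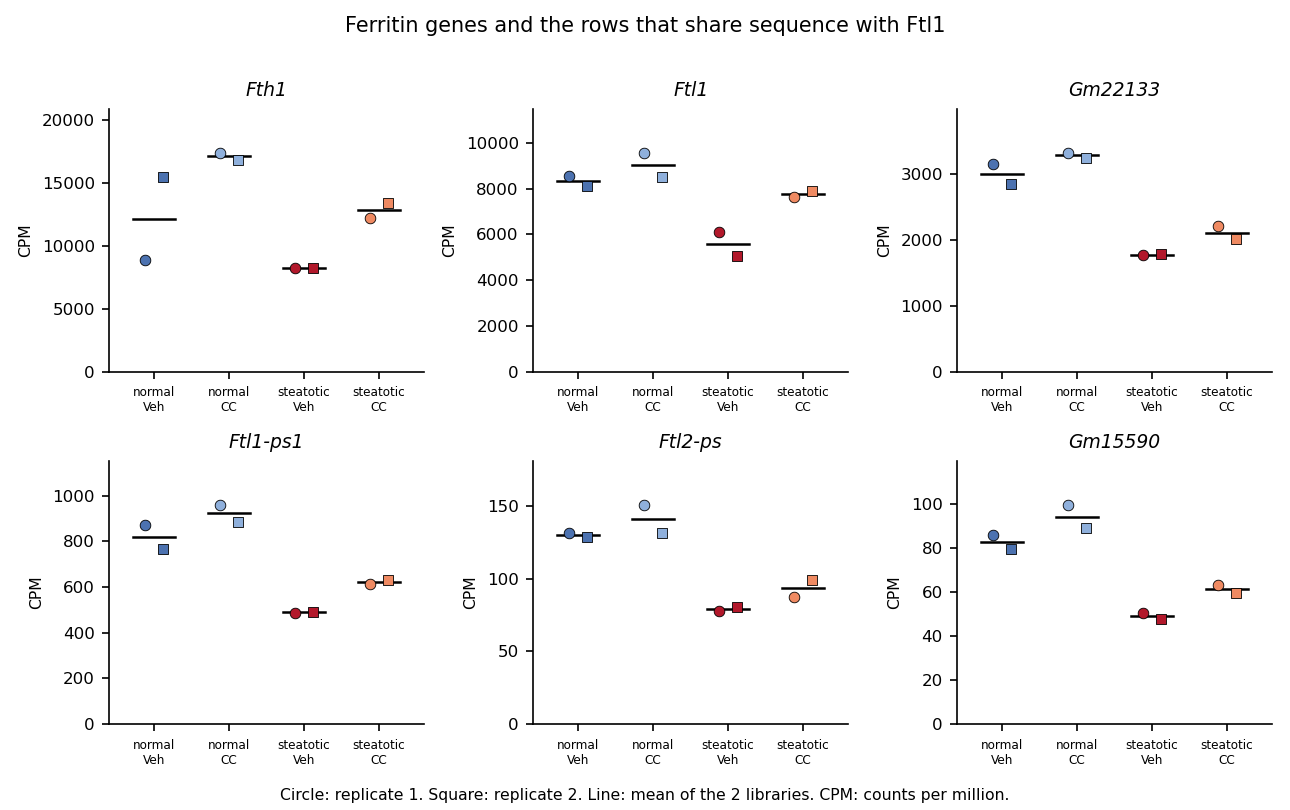
CPM (y axis, from 0, a separate scale for each row) of *Fth1*, *Ftl1* and 4 rows that share sequence with *Ftl1*, in the 2 libraries of each group (x axis), with the group mean as a line. *Gm22133*, *Ftl1-ps1*, *Ftl2-ps* and *Gm15590* are lower in the 4 libraries labelled steatotic than in the 4 labelled normal, and only *Fth1* splits between the libraries of normal liver with Veh.

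*Tfrc* (chr16:32608920-32632794, plus strand), the receptor that takes up transferrin-bound iron, was lower with the steatotic label and fell with CC in macrophages of that label. It stood at 103 and 108 CPM in normal liver with Veh, 96.7 and 91.5 CPM in normal liver with CC, 67.7 and 67.6 CPM in steatotic liver with Veh, and 49.6 and 48.7 CPM in steatotic liver with CC. No groups overlapped. The steatotic label went with -0.60 ± 0.05 (SE, edgeR adjusted p = 7.7e-05) with Veh and with -0.91 ± 0.05 (edgeR adjusted p = 1.06e-05) with CC, on the log2 scale. *Tfrc* mRNA fell by 0.45 ± 0.05 on the log2 scale with CC and the steatotic label (edgeR adjusted p = 0.000476), and the value with the normal label was -0.13 ± 0.05 (edgeR adjusted p = 0.139). The difference between these responses was -0.31, with a 95% interval from -0.47 to -0.16, and narrowly missed the threshold (edgeR adjusted p = 0.057). *Tfrc* is also known from dividing cells and red cell precursors. Cell division markers, 7 in all, summed to 15.6 and 15.9 CPM in normal liver with Veh, 11.97 to 12.2 CPM in normal liver with CC, 21.5 to 21.8 CPM in steatotic liver with Veh and 20.0 CPM in both libraries of steatotic liver with CC, with 2 of the 7 called higher with the steatotic label at either treatment and 0 of 7 called with CC in either label by edgeR, where at an unadjusted p-value under 0.05 4 were lower with the normal label and 2 with the steatotic label. Of 9 erythroid markers 1 was tested, *Epor*, which was called lower in all 4 comparisons, in the same direction as *Tfrc*, and had 0 counts in steatotic liver with CC. The erythroid sum was 3.44 and 3.85 CPM in normal liver with Veh, 0.913 and 1.47 CPM in normal liver with CC, 1.67 and 1.92 CPM in steatotic liver with Veh, and 0.061 and 0.242 CPM in steatotic liver with CC, and each haemoglobin gene stood at 0 to 0.324 CPM. The part of these cells in the result was not tested.

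*Slc11a1* and *Slc11a2* encode related metal transporters of the phagosome and of the endosome, the latter also called DMT1. *Slc11a2* (chr15:100387898-100425072, minus strand) stood at 114 and 126 CPM in normal liver with Veh, 164 and 162 CPM in normal liver with CC, 90.8 and 87.3 CPM in steatotic liver with Veh, and 124 and 118 CPM in steatotic liver with CC. The CC libraries lay above the Veh libraries of the same label, and steatotic liver with CC overlapped normal liver with Veh. CC raised it 1.39-fold with the normal label (log2 0.48 ± 0.06, SE, edgeR adjusted p = 0.00203) and 1.38-fold with the steatotic label (log2 0.46 ± 0.06, edgeR adjusted p = 0.00114). The difference between these responses was -0.02, with a 95% interval from -0.21 to 0.18. The steatotic label went with -0.38 ± 0.06 with Veh (edgeR adjusted p = 0.00219) and with -0.40 ± 0.06 with CC (edgeR adjusted p = 0.00198). The row sums the transcripts of *Slc11a2*, and a gene on the opposite strand, *Gm5475*, overlaps it. The library kit keeps strand, but whether strand was used in counting is not given in the sources used here.

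*Slc11a1* (chr1:74375195-74386062, plus strand) was much more abundant and responded less. It stood at 907 and 947 CPM in normal liver with Veh, 1021 and 1120.1 CPM in normal liver with CC, 955 and 943 CPM in steatotic liver with Veh, and 1118 and 1076 CPM in steatotic liver with CC. The 4 CC libraries lay above the 4 Veh libraries, and the labels overlapped at either treatment. The log2 response to CC was 0.24 ± 0.05 with the normal label (SE, edgeR adjusted p = 0.0194) and 0.23 ± 0.05 with the steatotic label (edgeR adjusted p = 0.0151). The first was not called without replicate 1 of normal liver with Veh (0.22, edgeR adjusted p = 0.101) or replicate 2 of normal liver with CC (0.18, edgeR adjusted p = 0.0895). The second was not called without replicate 1 (0.24, edgeR adjusted p = 0.06) or replicate 2 (0.21, edgeR adjusted p = 0.0795) of steatotic liver with Veh, or replicate 1 of steatotic liver with CC (0.20, edgeR adjusted p = 0.0796). Between the labels the 95% interval of the log2 fold change ran from -0.04 to 0.20 with Veh and from -0.06 to 0.18 with CC. The ratio of *Slc11a1* to *Slc11a2* counts was 6.23 to 7.97 with the normal label and 8.98 to 10.8 with the steatotic label.

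*Ireb2* (chr9:54863789-54912530, plus strand) encodes iron regulatory protein 2, which binds the hairpins shown above. Its libraries ranged from 68.3 to 78.4 CPM, the narrowest range of the 10 genes relative to its level, and no comparison was called. It stood at 68.3 and 75.7 CPM in normal liver with Veh and at 76.0 and 78.4 CPM in steatotic liver with Veh, and at 69.0 to 71.0 CPM in the 4 libraries with CC. The log2 fold change with the steatotic label and Veh was 0.15 (95% interval 0.01 to 0.28, edgeR adjusted p = 0.0973), and without replicate 2 of normal liver with Veh it was 0.22 (edgeR adjusted p = 0.0323), against 0.0719 without replicate 1 (edgeR adjusted p = 0.417). The 95% intervals of the other 3 comparisons lay within -0.26 and 0.18, and that of the difference between the CC responses ran from -0.29 to 0.09. The protein is known to be controlled mainly by degradation, which mRNA does not measure. *Fbxl5*, which marks it for degradation, and *Aco1*, which encodes iron regulatory protein 1, are in the list of other iron genes below.

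Both secreted genes were called higher with the steatotic label and Veh, only *Lcn2* also with CC, and both were low in all libraries. *Lcn2* (chr2:32384633-32388252, minus strand) encodes lipocalin 2, which binds bacterial iron carriers. It stood at 7.15 and 9.81 CPM in normal liver with Veh, 8.22 and 10.4 CPM in normal liver with CC, 35.1 and 30.0 CPM in steatotic liver with Veh, and 36.0 and 29.3 CPM in steatotic liver with CC. The 4 libraries labelled steatotic lay above the 4 labelled normal, and Veh and CC overlapped in both. The steatotic label went with a 3.96-fold higher level with Veh (log2 1.99 ± 0.20, SE, edgeR adjusted p = 0.000489) and a 3.58-fold higher level with CC (log2 1.84 ± 0.20, edgeR adjusted p = 0.000826). The 95% interval of the log2 response to CC ran from -0.31 to 0.65 with the normal label and from -0.44 to 0.48 with the steatotic label.

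*Lcn2* is also a granule gene of neutrophils. Of 10 neutrophil markers 1 was tested, *S100a8*, and *Ly6g* had 0 counts in all 8 libraries. Their summed level was 9.11 and 9.97 CPM in normal liver with Veh, 15.0 and 14.5 CPM in normal liver with CC, 5.50 and 4.91 CPM in steatotic liver with Veh, and 18.6 and 19.6 CPM in steatotic liver with CC. *S100a8* made up most of this sum, and *S100a9* stood at 0 to 0.282 CPM. The sum was higher with CC in both labels. With the steatotic label it was lower with Veh, the opposite direction to *Lcn2*, and higher with CC, the same direction as *Lcn2* (*S100a8* 0.39, edgeR adjusted p = 0.0535). Of 6 T and NK cell markers all were higher with the steatotic label at either treatment, with a summed level of 0.580 to 0.929 CPM with the normal label and 11.2 to 14.9 CPM with the steatotic label. The part of neutrophils and of T and NK cells in the result was not tested.

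*Cp* (chr3:19957054-20009145, plus strand) encodes ceruloplasmin, a copper protein that oxidizes iron as it leaves cells. It stood at 3.07 and 3.93 CPM in normal liver with Veh, 4.52 and 4.86 CPM in normal liver with CC, 6.73 and 6.43 CPM in steatotic liver with Veh, and 5.75 and 6.98 CPM in steatotic liver with CC. The libraries labelled steatotic lay above those labelled normal. The log2 fold change was 0.96 ± 0.17 with Veh (SE, edgeR adjusted p = 0.00434) and 0.47 ± 0.17 with CC (edgeR adjusted p = 0.0788), and the responses to CC were 0.46 ± 0.17 with the normal label (edgeR adjusted p = 0.144) and -0.03 ± 0.17 with the steatotic label (edgeR adjusted p = 0.925). Hepatocytes are a main source of *Cp*. Of 10 hepatocyte markers 7 were tested, 5 of which were lower and 1, *Ass1*, higher with the steatotic label at either treatment. *Alb* stood at 41.0 to 49.4 CPM with the normal label and 1.24 to 2.31 CPM with the steatotic label, the opposite order to *Cp*, and *Ass1* at 6.42 to 8.74 CPM and 31.7 to 98.2 CPM, the same order as *Cp*. The part of hepatocyte RNA in the level of *Cp* was not tested. *Hps3* overlaps *Cp* on the other strand, so reads of these genes may be mixed.

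Levels of different genes were compared per kilobase of annotated exon. On this scale *Ftl1* had a mean over groups of 5730.3 CPM per kilobase, *Fth1* 3636 and *Hmox1* 2073, and then came *Slc11a1* (273), *Blvrb* (72.1), *Slc11a2* (19.4), *Tfrc* (12.8), *Lcn2* (7.91), *Ireb2* (7.60) and *Cp* (0.552). The order of the ferritins depended on the length used, since *Fth1* has long alternative exons. Per kilobase of the longest coding sequence *Fth1* had 23104 CPM and *Ftl1* 13987 CPM. *Lcn2* passed *Ireb2* in the libraries labelled steatotic, with 12.4 CPM per kilobase of exon against 8.14 with Veh, and lay below it in those labelled normal, with 3.23 against 7.59 with Veh.

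Other genes of iron handling were taken from a list of 63, of which 54 were tested. With Veh, 11 were higher and 14 lower with the steatotic label, a median log2 fold change of -0.03, and the background of all genes is the 16.4% and 14.3% given above. The count of 25 called genes became 16 without replicate 1 and 15 without replicate 2 of steatotic liver with Veh. With CC, 8 were higher and 13 lower with that label, against 15.9% and 12.9% of all genes. CC went with 3 higher and 3 lower with the normal label (6.27% and 5.54% of all genes) and with 9 higher and 7 lower with the steatotic label (12% and 10.9% of all genes). The medians of these comparisons were -0.05, 0.00 and 0.00. Those named next are, for each comparison, the 4 with the largest change among called genes with a mean log2 CPM over 2.

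The exporter of iron was lower with the steatotic label. *Slc40a1*, which encodes ferroportin, stood at 1079 and 1083 CPM in normal liver with Veh, 913.96 and 936 CPM in normal liver with CC, 552 and 543 CPM in steatotic liver with Veh, and 346 and 392 CPM in steatotic liver with CC, with no overlap between groups. The steatotic label went with a log2 fold change of -0.94 ± 0.05 with Veh (SE, edgeR adjusted p = 1.62e-05) and of -1.30 ± 0.06 with CC (edgeR adjusted p = 3.51e-06). Of the uptake genes, *Steap3*, an endosomal reductase that prepares iron for transport, rose by 0.84 ± 0.05 with the steatotic label and Veh (edgeR adjusted p = 2.05e-05), from 41.6 and 42.5 CPM to 72.3 and 73.3 CPM. *Steap2*, a relative, was higher with the steatotic label than with the normal label among the CC libraries (1.03 ± 0.32, edgeR adjusted p = 0.0494), and this call was lost without replicate 2 of normal liver with CC (0.62, edgeR adjusted p = 0.149), without either replicate of steatotic liver with Veh (edgeR adjusted p = 0.0823 without replicate 1 and 0.0809 without replicate 2) and without either of steatotic liver with CC (0.149 and 0.141). In the uptake list of 11 genes, 9 were tested, of which 4 were higher and 1 lower with the steatotic label and Veh, against 16.4% and 14.3% of all genes.

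Among the regulators, *Neo1*, a coreceptor in the control of hepcidin, and *Epas1*, a hypoxia-inducible factor, were lower with the steatotic label and Veh, *Neo1* by a log2 fold change of -1.41 (SE 0.13, edgeR adjusted p = 0.000156) and *Epas1* by -1.28 (SE 0.12, edgeR adjusted p = 0.000166). *Epas1* was lower with CC too, at -1.14 ± 0.12 (edgeR adjusted p = 0.000369). *Fbxl5* was higher (0.21, edgeR adjusted p = 0.0441) and *Aco1* lower (-0.31, edgeR adjusted p = 0.000977) with the steatotic label and Veh. The call of *Fbxl5* was lost without any of 7 libraries, every one except replicate 2 of normal liver with Veh (edgeR adjusted p = 0.0622 to 0.21), and by DESeq2 (adjusted p = 0.0626), while that of *Aco1* held without each library. Of 14 regulators 11 were tested, and 3 were higher and 4 lower in this comparison, against 16.4% and 14.3% of all genes.

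*Alas1*, the first enzyme of haem synthesis, rose from 57.2 and 60.3 CPM to 127 and 120.3 CPM with the normal label (log2 1.11 ± 0.05, SE, edgeR adjusted p = 3.03e-05) and from 62.6 and 62.4 CPM to 150.1 and 154 CPM with the steatotic label (1.30 ± 0.05, edgeR adjusted p = 3.16e-06). It was the sole gene called in either of these comparisons among the 8 of haem synthesis, where 6.27% of all genes were higher and 5.54% lower with the normal label and 12% and 10.9% with the steatotic label. *Hfe*, a membrane protein that binds the transferrin receptors and is lost in hereditary haemochromatosis, fell by 1.71 ± 0.25 with the steatotic label (edgeR adjusted p = 0.00565), from 47.1 and 54.6 CPM to 13.6 and 17.2 CPM. With the normal label it stood at 40.4 and 24.7 CPM with Veh and 12.9 and 14.1 CPM with CC (-1.23 ± 0.25, edgeR adjusted p = 0.0328). This last call was lost without any of 6 libraries, every one except those of normal liver with Veh, with an edgeR adjusted p of 0.0517 to 0.172, and when the replicate numbers were a block (edgeR adjusted p = 0.0739). *Slc39a14*, a transporter of iron not bound to transferrin, rose by 0.44 ± 0.07 with the normal label (edgeR adjusted p = 0.00748).

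*Trf*, which encodes transferrin, fell by 1.15 ± 0.09 with CC and the steatotic label (SE, edgeR adjusted p = 8.17e-05), from 103 and 118 CPM to 45.9 and 52.7 CPM. With the normal label the change was -0.42 ± 0.09 (edgeR adjusted p = 0.0202), from 100.4 and 95.5 CPM to 69.1 and 73.9 CPM, and was not called without any 1 of the 4 libraries labelled normal (edgeR adjusted p = 0.0629 to 0.123). *Hp*, which encodes the haemoglobin-binding haptoglobin, rose by 2.25 ± 0.21 with the steatotic label (edgeR adjusted p = 0.000245), from 2.01 and 1.81 CPM to 8.58 and 9.33 CPM. With CC the steatotic label went with 1.24 ± 0.21 for *Hp* (edgeR adjusted p = 0.00342). The difference between the CC responses was called for 4 of the 54 genes, *Hp* and *Hif1a* higher and *Trf* and *Bach1* lower, against 1.95% higher and 1.27% lower of all genes. This count became 0 to 3 with single libraries left out. *Bach1* encodes a haem-sensing repressor of *Hmox1* and ferritin genes. It stood at 143 and 152 CPM in normal liver with Veh, 139.9 and 134 CPM in normal liver with CC, 169.7 and 179 CPM in steatotic liver with Veh, and 126 CPM in both libraries of steatotic liver with CC.

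**Figure D4:**
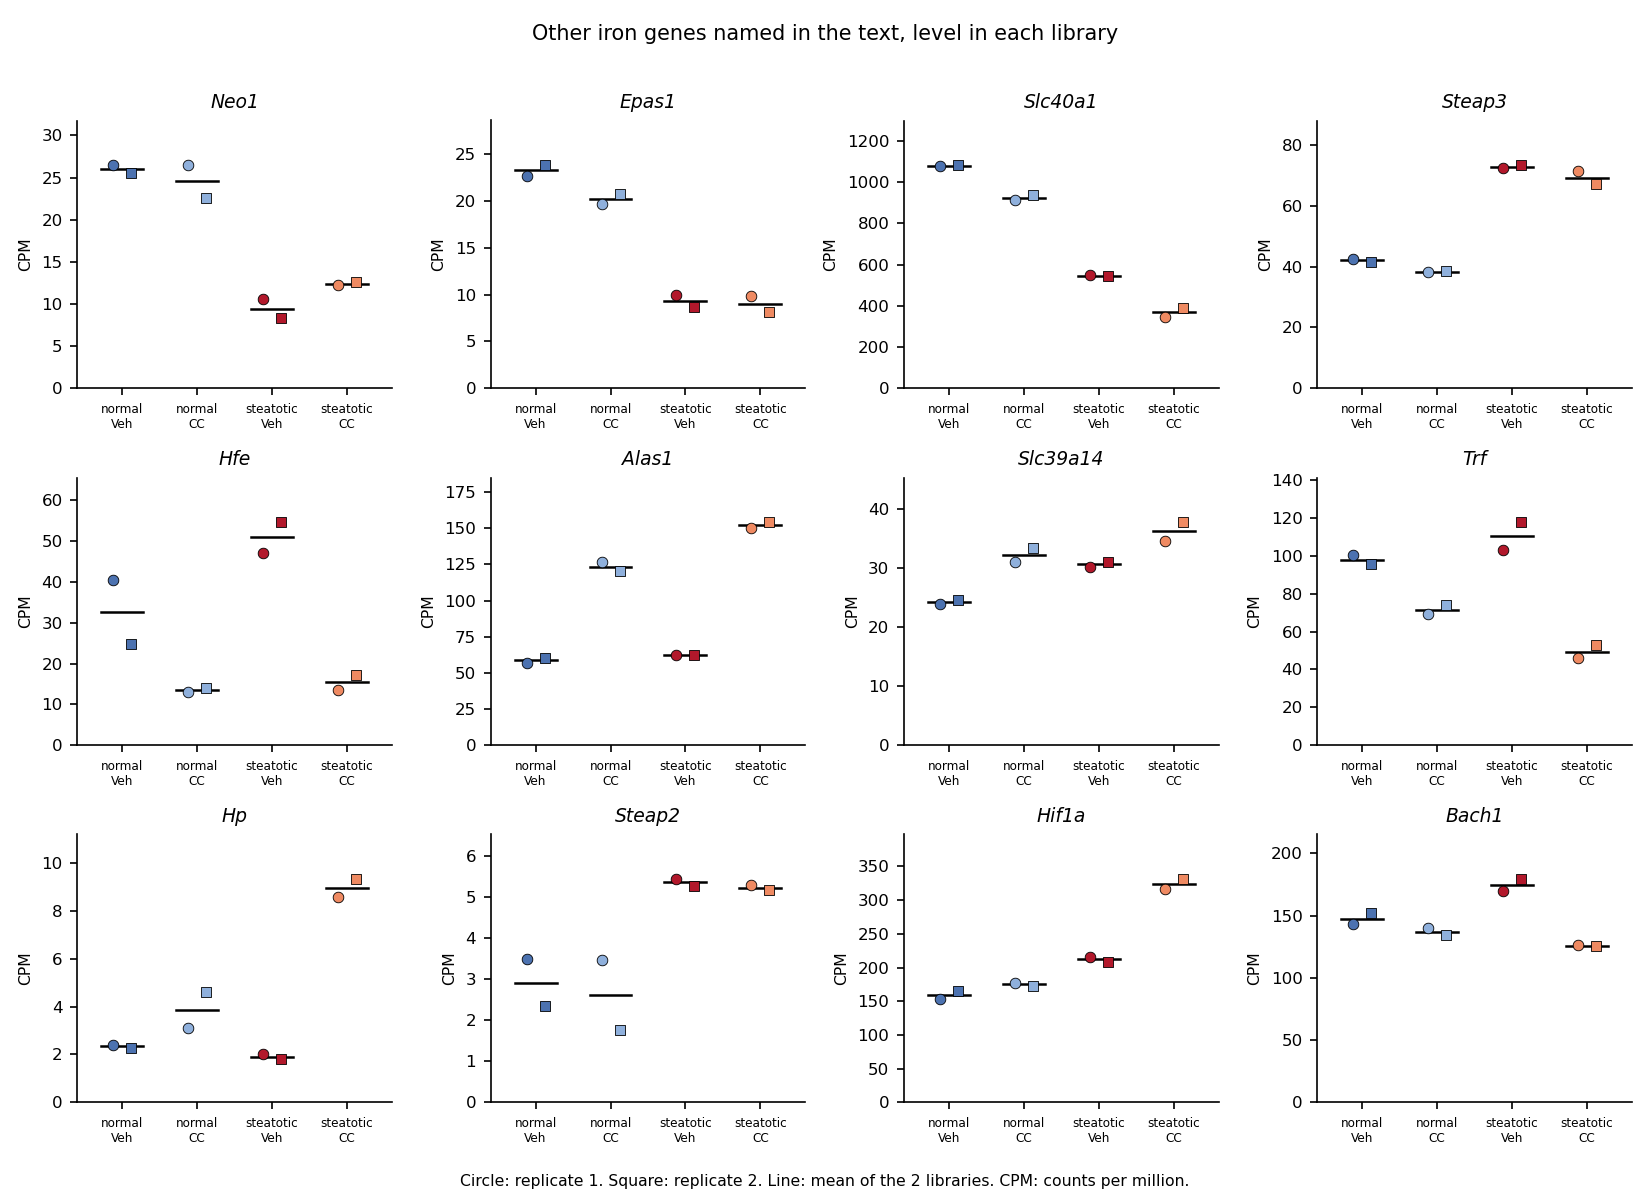
CPM (y axis, from 0, a separate scale for each gene) of the 12 other iron genes that the rule named, in the 2 libraries of each group (x axis), with the group mean as a line. *Slc40a1*, *Neo1* and *Epas1* are lower and *Steap3* is higher with the steatotic label, and *Alas1* is higher with CC.

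Promoter windows of 300 bases (250 before to 50 after the start, RefSeq, GRCm38.p6) were at hand for 8 of the 10 genes, in 12 windows, with none for *Hmox1* and *Slc11a2*. Letters of the antioxidant response element, TGACNNNGC or TGAGNNNGC on either strand, were in windows of *Blvrb* and *Slc11a1*, 2 of 8 genes, and in 27.8% of all 32851 promoter windows. The E-box CACGTG was in 0 of 8, against 7.15% of all windows. The hypoxia response letters ACGTG, which the E-box contains, were in 2 of 8 (*Blvrb* and *Tfrc*), against 19.6%, and GCGTG was in 5 of 8, against 32.4%. Genes with several windows had more chances of a match than a single window has.

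The genes with the most similar pattern over the 8 libraries were found among 10375 candidates by the correlation of log2 CPM, given as a description, since libraries of a group share their condition. For *Hmox1* these were *Plek* (Pearson r = 0.996), *Gm21399* (0.993) and *Rnasek* (0.990). For *Tfrc* they were *Wfdc17* (0.996), *Ogdh* (0.995) and *mt-Nd3* (0.993), and for *Lcn2* they were *Itgb3* (0.995), *Ptprs* (0.994) and *Crybg1* (0.994).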

How the data were processed

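Hepatic macrophage mRNA was measured in 8 libraries, 2 in each of 4 groups set by the labels. Reads of 150 bp, sequenced from both ends, were trimmed (fastp) and aligned to mm10 (HISAT2) by the authors, who made the gene values with StringTie (versions not given in the sources used here). The authors deposited estimated counts (expected counts) for 55401 genes. These were whole numbers without normalization, and nothing was pooled. StringTie may have shared reads between overlapping and alike genes, which would bear on *Ftl1* and was not tested.

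Genes reaching 0.5 CPM in 1 library or more (15202) were tested in edgeR 4.0.16 (R 4.3.3), with the robust quasi-likelihood fit (glmQLFit, glmQLFTest), TMM scaling and 1 mean for each of the 4 groups over all 8 libraries. Benjamini-Hochberg adjustment ran over all tested genes, with a threshold of 0.05. CPM values are scaled to each library's total, without TMM, and the steps were tested on simulated data. Alternatives were DESeq2 1.42.0, its size factors within edgeR, no TMM, both a looser and a stricter filter, counts divided by 4, no robust step, a replicate block, a fit on 4 libraries and the removal of each library. Where a removal left 1 library in a group, that library was assumed to vary like the others. Summing *Ftl1* with rows that share its sequence was chosen after seeing the data.

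The genes, the lists and the rule for named genes (all 10 genes and, of the other iron genes, the 4 with the largest change among called genes with a mean log2 CPM over 2) were chosen with earlier results of these data known. *Fbxl5*, *Aco1* and the rows that share sequence with *Ftl1* were named outside this rule. Positions are from GENCODE M21 (GRCm38, the same assembly as mm10). Figures were drawn with matplotlib 3.10.9. The labels do not say that replicate numbers mark a shared batch, and same-numbered libraries deviated together only weakly (r from 0.0040 to 0.17).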

Additional observations from a re-analysis of the deposited data

Results flagged for a closer look

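The response to CC differed between the labels by the edgeR test of the difference itself for 4 of the other iron genes. None of these calls held in every fit with a library left out.

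*Hp* had a difference of 1.49 on the log2 scale (steatotic minus normal, edgeR adjusted p = 0.0415). It stood at 2.41 and 2.26 CPM in normal liver with Veh, 3.09 and 4.62 CPM in normal liver with CC, 2.01 and 1.81 CPM in steatotic liver with Veh, and 8.58 and 9.33 CPM in steatotic liver with CC. The value ranged from 1.23 to 1.81 over the libraries left out, and the edgeR adjusted p was over the threshold without any of 7 of the 8 libraries (0.0628 to 0.130). It was also lost with a replicate block (edgeR adjusted p = 0.0644) and without robust estimation (edgeR adjusted p = 0.053).

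*Trf* had a difference of -0.73 (edgeR adjusted p = 0.0223), ranging from -0.83 to -0.63 over the libraries left out, with the call lost without any of 6 libraries (edgeR adjusted p from 0.0532 to 0.0869).

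*Hif1a*, a hypoxia-inducible factor, had a difference of 0.46 (edgeR adjusted p = 0.016). It stood at 153 and 166 CPM in normal liver with Veh, 177 and 173 CPM in normal liver with CC, 216 and 208 CPM in steatotic liver with Veh, and 317 and 331 CPM in steatotic liver with CC. The call was lost without replicate 1 (edgeR adjusted p = 0.0509) or replicate 2 (edgeR adjusted p = 0.066) of normal liver with CC, or replicate 2 of steatotic liver with Veh (edgeR adjusted p = 0.0661).

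*Bach1* had a difference of -0.38 (edgeR adjusted p = 0.0298), and the call was lost without any of 6 libraries (edgeR adjusted p from 0.0649 to 0.105) and with a replicate block (edgeR adjusted p = 0.0524).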

How the results depend on the processing

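Of the values of single genes under the alternatives, 1248 kept their direction and their side of the threshold, 74 lost a call, 12 gained a call and 22 changed sign. Every change of sign was of a value that was not called. Without TMM, the difference of CC responses was 0.00048 for *Slc11a1* and 0.0024 for *Slc11a2*, both near 0 and negative in the fit reported. With a replicate block, 2 of the other iron genes were called for the difference of CC responses in place of 4 (*Hp* and *Bach1* lost), and the calls of *Hfe* (CC with the normal label) and *Fbxl5* (steatotic label with Veh, edgeR adjusted p = 0.0666) were lost. The block changed no other call of the 10 genes, the iron genes named by the rule, *Aco1*, *Gm22133* or *Ftl1-ps1*. With libraries left out in turn, 3 to 6 of the 10 genes were called for CC with the steatotic label and 0 to 1 for the difference of CC responses. Of the other iron genes, 15 to 22 were called for the steatotic label with Veh and 0 to 3 for the difference. Over the same fits, the log2 response to CC with the steatotic label ran from -0.0701 to 0.0425 for *Blvrb*, from -0.18 to 0.10 for *Cp* and from -0.14 to 0.16 for *Lcn2*. That with the normal label ran from -0.0893 to 0.0584 for *Ireb2* and from -0.0361 to 0.42 for *Lcn2*. The steatotic label with CC ran from -0.0058 to 0.13 for *Slc11a1*. The difference of CC responses ran from -0.11 to 0.0053 for *Blvrb*, from -0.35 to 0.46 for *Fth1*, from -0.0855 to 0.0487 for *Slc11a1*, from -0.0986 to 0.0483 for *Slc11a2* and from -0.40 to 0.0558 for *Lcn2*. The cause was not tested. With 2 libraries a group, small differences between the responses could not be resolved, and *Cp* and *Lcn2* rest on the fewest counts of the 10 genes.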

Other observations

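*Flvcr1*, which encodes a haem exporter and was chosen after its values were seen, differed widely between replicates in every group but steatotic liver with CC. In each of those groups replicate 1 lay above replicate 2. *Flvcr1* stood at 102 and 34.8 CPM in normal liver with Veh and 117 and 37.6 CPM in normal liver with CC. In steatotic liver it stood at 92.2 and 29.5 CPM with Veh and 36.0 and 36.6 CPM with CC.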
